A study of Mus musculus with 24 samples.

Results

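Dendritic cells of PWD mice were compared with those of B6 mice before any stimulus, gene by gene. PWD was inbred from wild mice of the subspecies Mus musculus musculus, and B6 is a classical laboratory strain whose substrain the labels do not state. Every PWD_Untreated library and every B6_Untreated library was taken, 4 of each, which makes 8 of the 24 libraries of the series. The other 16 are LPS-treated cells of both strains and all libraries labelled C57, and the labels do not say how C57 relates to B6. All cells came from bone marrow kept in GM-CSF, a culture known to hold dendritic cells beside macrophages and granulocytes, and the untreated wells received no agent. Each library is an independent culture of 1 mouse, per the design text, and ages are not given. Xist read 53.1 to 104 TPM in the mice numbered 3 and 4 of both strains and at most 0.0901 TPM in those numbered 1 and 2, so each group held 2 males and 2 females.

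Dendritic cells take up antigen, display it on MHC molecules and, once activated, raise co-stimulatory molecules and the receptor Ccr7 to reach lymph nodes. Unstimulated myeloid cells also keep a low interferon tone. Traces of interferon-beta act on the receptor Ifnar1/Ifnar2, the kinases Jak1 and Tyk2 phosphorylate Stat factors, and these join Irf9 in a complex that binds interferon-stimulated response elements in the promoters of antiviral genes. Irf7, itself such a target, feeds back on interferon transcription.

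The values are TPM, transcript abundance per length scaled to a fixed total per library, and differences are given as PWD minus B6 on the log2(TPM + 1) scale, which understates the change of low genes. A gene was called when limma gave an adjusted p under 0.05 over the 13246 genes tested. The p-values measure the spread between cultures of single mice. PWD was higher in 4930 genes (37.2%) and lower in 2614 (19.7%), and 1371 (10.4%) and 852 (6.43%) of these differed by a log2 of 1 or more. After median-of-ratios scaling, which moved the median difference of all genes from 0.14 to 0.01, the split was 4181 higher (31.6%) and 3998 lower (30.2%). Structural RNA such as 7SL and 7SK took 32.0% to 44.2% of TPM in B6, 41.9% and 40.3% in PWD 1 and 2, and 29.3% and 28.8% in PWD 3 and 4. The first principal component of the 8 libraries held 81.4% of the variance and separated the strains, and the second, at 7.72%, separated PWD 1 and 2 from PWD 3 and 4. The gene lists used here were chosen with earlier results of these data known, so their counts are read only beside the shares of all genes.

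Among the genes used to check the dendritic cell label, Itgax and Csf2rb were expressed in both strains, while Flt3 did not pass the filter. Itgax read 372, 305, 299 and 385 TPM in the B6 libraries and 236, 264, 402 and 381 TPM in the PWD libraries, and the groups of this gene for the CD11c integrin chain overlapped (log2 difference -0.11, SE 0.13, limma adjusted p = 0.49). Its difference was -0.27 after median-of-ratios scaling, with a limma adjusted p of 0.0032, and 0.21 with mice 3 and 4 alone (limma adjusted p = 0.10). The GM-CSF receptor chains Csf2ra (189 and 174 TPM in B6 and PWD) and Csf2rb (909.9 and 868) were not called on deposited TPM but were lower after median-of-ratios scaling (-0.28 and -0.25, limma adjusted p = 0.01 and 0.00085). With mice 3 and 4 alone Csf2rb was higher instead (0.33, limma adjusted p = 0.004). The paralogue Csf2rb2 was higher in PWD by 0.59 (limma adjusted p = 4.2e-06). Zbtb46, a transcription factor of conventional dendritic cells, was lower (-0.34) with overlapping groups, and that call was lost when a library was left out (limma adjusted p = 0.039, at most 0.19). Flt3 stayed under the filter at 0.140 to 0.449 TPM in the 8 libraries.

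Among 17 conventional dendritic cell markers tested, 4 (23.5%) were higher and 11 (64.7%) lower in PWD, beside 37.2% and 19.7% of all genes. Id2 (0.91), a factor needed for dendritic cell development, and Sirpa (0.75), an inhibitory surface receptor, were higher, and Kmo (-2.40), an enzyme of tryptophan breakdown, was lower. Summed over its 20 genes this list stood at 1456 to 1948 TPM in PWD and 1310.0 to 1591 TPM in B6. Of 24 macrophage and monocyte markers, 7 (29.2%) were higher and 14 (58.3%) lower, with sums of 7383 to 10415 TPM in PWD and 10505 to 12586 TPM in B6. The list of lymphoid and plasmacytoid markers summed to 61.0 to 81.7 TPM in PWD and 192 to 231 TPM in B6, and of its 8 tested genes 7 were lower and 1 higher. Most of that sum lay on Bst2 (98.3 and 33.0 TPM in B6 and PWD), which is also on the list of interferon-stimulated genes, Il7r (91.7 and 34.3 TPM), the interleukin-7 receptor chain, and the transcription factor Tcf4 (17.0 and 4.36 TPM). The defining Cd3e, Ncr1 and Gzma were listed at 0 in all 8 libraries, and 14 of the 21 genes were under 1 TPM throughout. The part of such cells in the strain differences was not tested. In these bulk samples, fewer cells of a type and less RNA per cell cannot be told apart.

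**Figure D1:**
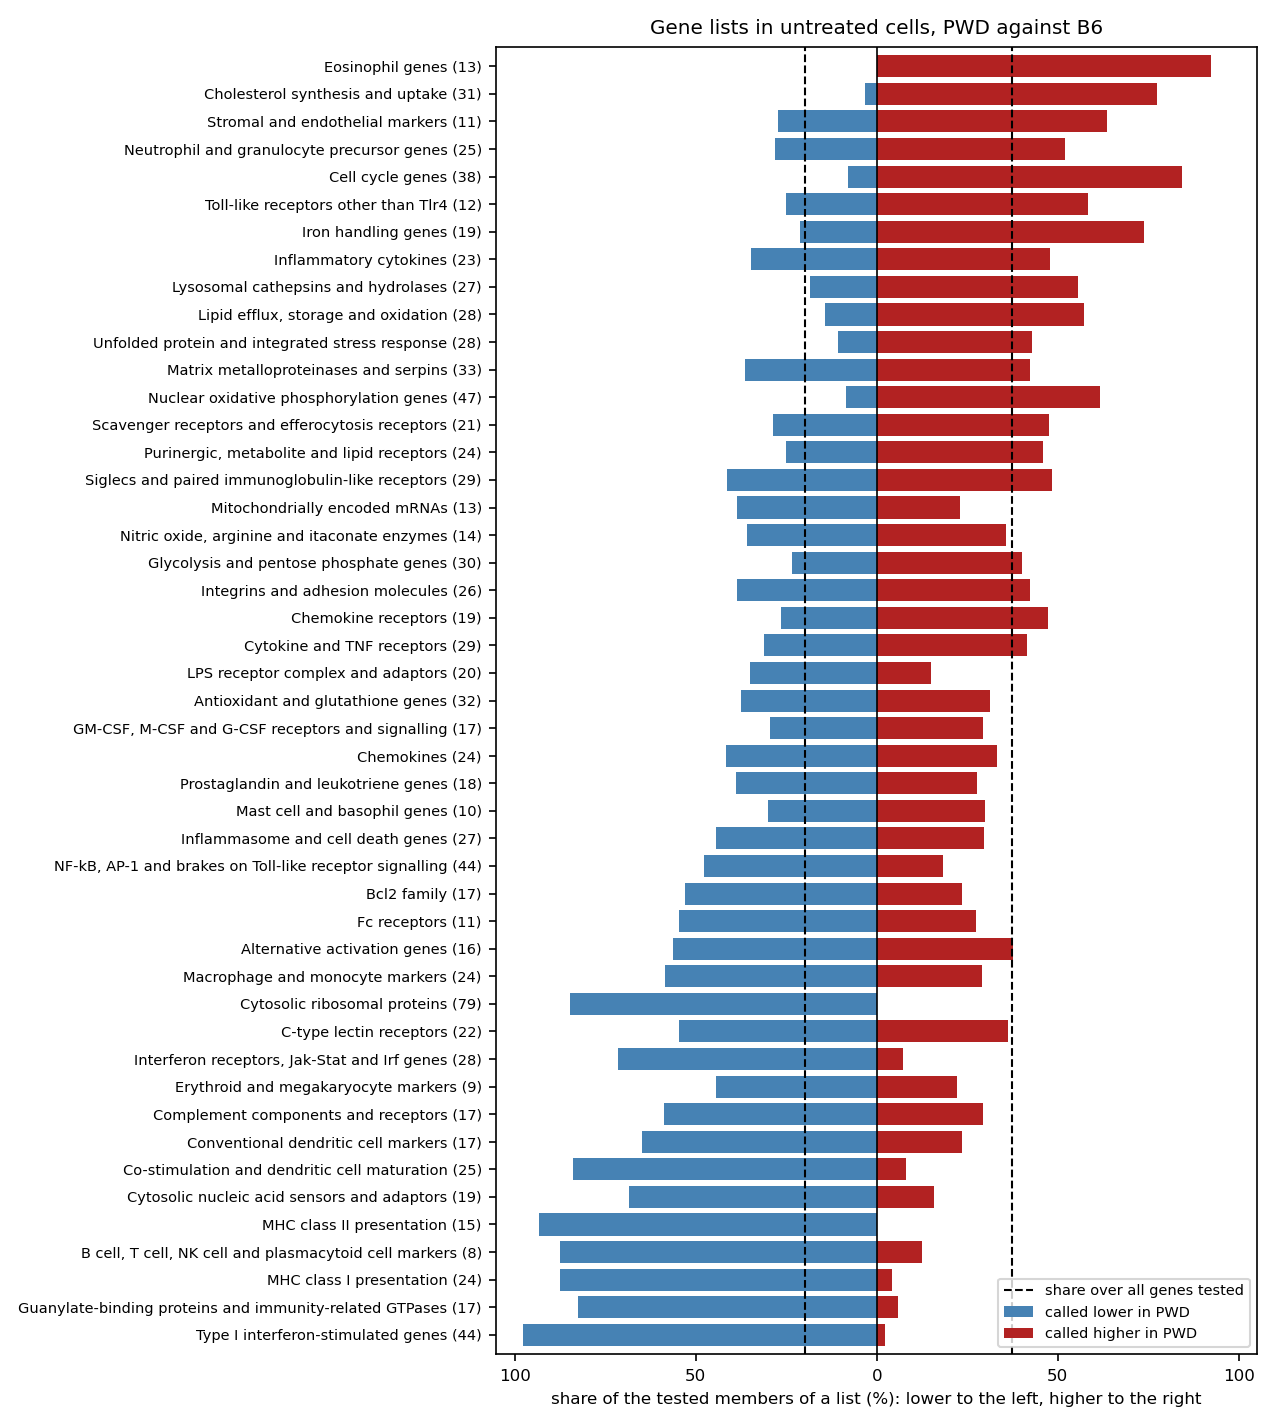
Share of tested genes of each list called lower (bars to the left) and higher (bars to the right) in PWD_Untreated than in B6_Untreated, in percent, with dashed lines at the shares of all 13246 genes tested. Interferon-stimulated genes, MHC genes and ribosomal proteins lie on the lower side, and eosinophil, cell cycle and cholesterol genes on the higher side.

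Along the interferon pathway, the ligand was close to the limit of the table. Ifnb1 read 0.467, 0.507, 0.875 and 0.113 TPM in the B6 libraries and 0.111, 0, 0 and 0 TPM in the PWD libraries, the groups did not overlap, and the difference was called (log2 difference -0.51, SE 0.22, limma adjusted p = 0.047) but lost when a library was left out (limma adjusted p up to 0.16). Of the receptor chains, Ifnar1 was not called on deposited TPM: it read 74.04, 80.5, 56.1 and 68.3 TPM in B6 and 52.3, 55.2, 67.5 and 75.2 TPM in PWD, with overlap. After median-of-ratios scaling Ifnar1 was called lower (log2 difference -0.31, limma adjusted p = 0.0002), and with mice 3 and 4 alone its difference was 0.20 and not called (limma adjusted p = 0.11). Ifnar2 read 56.00, 54.9, 47.4 and 49.1 TPM in B6 and 41.04, 39.8, 41.8 and 45.9 TPM in PWD, lower without overlap (log2 difference -0.29, SE 0.08, limma adjusted p = 0.0024). Jak1, the receptor's kinase, was higher by 0.29 with overlapping groups (limma adjusted p = 0.023), and this call too was lost on leaving out a library (up to 0.11) and not seen in mice 1 and 2 alone.

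The transcription factors of the pathway had log2 differences beyond those of the receptor chains. Stat2 read 112, 79.2, 96.8 and 121 TPM in the B6 libraries and 17.3, 18.2, 23.9 and 26.5 TPM in the PWD libraries. The lowest B6 library of this signal transducer stood above the highest PWD library by a wide gap (log2 difference -2.20, SE 0.12, limma adjusted p = 1.5e-14). Irf9, the DNA-binding member of the complex, was lower (-1.74), as was Stat4, best known from interleukin-12 signalling (-2.63). Irf7 read 52.5, 40.2, 46.2 and 61.7 TPM in the B6 libraries and 2.36, 2.28, 2.84 and 2.60 TPM in the PWD libraries. The highest PWD library lay far below the lowest B6 library (log2 difference -3.85, SE 0.12, limma adjusted p = 3.6e-20). Of the 28 genes listed for interferon receptors, Jak-Stat and Irf factors, 20 were lower and 2, Jak1 and Stat6, higher. With median-of-ratios scaling 25 were lower. One of the lower genes is the target Isg15, which is also on the list of interferon-stimulated genes, so the 2 lists are not separate.

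The antiviral targets were lower almost without exception. Of 44 type I interferon-stimulated genes, 43 were lower and 1 higher, with a median difference of -2.58 against 0.14 for all genes, and the libraries of 42 of the lower genes did not overlap (15.3% of all genes). The counts of 43 lower and 1 higher were the same with median-of-ratios scaling. The exception, Ifi44l, is listed at 0 in every B6 library and at 0.258 to 0.733 TPM in PWD. Isg15 read 154, 98.6, 152 and 187 TPM in the B6 libraries and 11.5, 9.14, 14.1 and 13.8 TPM in the PWD libraries. This ubiquitin-like antiviral protein was lower in each PWD library than in any B6 library (log2 difference -3.48, SE 0.17, limma adjusted p = 7.4e-15). The tetratricopeptide protein Ifit1, which binds viral RNA, read 120.4, 95.4, 110.2 and 133 TPM in B6 and 4.04, 3.62, 4.50 and 5.17 TPM in PWD (log2 difference -4.44, SE 0.16, limma adjusted p = 2.3e-17). The C57 libraries held 92.9 ± 34.02 TPM of Ifit1 and 92.3 ± 22.9 TPM of Isg15 (SD, n = 4).

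Ifi27l2a, an interferon-stimulated gene, was at 197, 176, 186 and 244 TPM in B6 and is listed at 0 in all 4 PWD libraries. Cxcl10, a T cell attractant, differed by -4.86, and Ccl5, another, by -4.78. Of 17 GTPases of the guanylate-binding and immunity-related families, which act on vacuoles that hold pathogens, 14 were lower and 1 higher. The giant GTPase Gvin1 stood at 80.6 ± 12.4 TPM in B6 and 5.63 ± 1.78 TPM in PWD (SD, n = 4, log2 difference -3.65). Gbp2 read 189, 153, 103 and 114 TPM in the B6 libraries and 8.11, 7.83, 10.2 and 10.7 TPM in the PWD libraries, without overlap (log2 difference -3.75, SE 0.16, limma adjusted p = 1.4e-16). Its neighbour Gbp2b went the other way, with 1.83, 1.16, 0.674 and 0.521 TPM in B6 and 7.26, 7.04, 9.14 and 8.29 TPM in PWD (log2 difference 2.16, SE 0.17, limma adjusted p = 2.1e-11). Gbp2 and Gbp2b are close copies, and reads may be split between such genes, so their single values are uncertain.

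The promoters of these genes, from 250 bases before to 50 after the annotated start, are shown because the element bound by the complex of Stat2 and Irf9 can be read in them. Sequences are from RefSeq on GRCm38.p6, in the direction of transcription, and capitals mark the core of the interferon-stimulated response element, searched on both strands as GAAA, any 2 bases and GAAA again, or TTTC, any 2 bases and TTTC. Ifit1 (chr19:34640639-34640938, plus strand) has 2 matches, which begin 104 and 85 bases before the start. Isg15 (chr4:156200769-156201068, minus strand) has 3 overlapping matches, the farthest 78 bases before the start. Oas1a (chr5:120907476-120907775, minus strand), an RNA-sensing synthetase, and Irgm1 (chr11:48871371-48871670, minus strand), a GTPase, have 2 overlapping matches each. Gbp2 (chr3:142620413-142620712, plus strand) and Gbp2b (chr3:142594597-142594896, plus strand) carry the same 10 letters, 59 and 137 bases before the start, although they differ in opposite directions between the strains.
Ifit1: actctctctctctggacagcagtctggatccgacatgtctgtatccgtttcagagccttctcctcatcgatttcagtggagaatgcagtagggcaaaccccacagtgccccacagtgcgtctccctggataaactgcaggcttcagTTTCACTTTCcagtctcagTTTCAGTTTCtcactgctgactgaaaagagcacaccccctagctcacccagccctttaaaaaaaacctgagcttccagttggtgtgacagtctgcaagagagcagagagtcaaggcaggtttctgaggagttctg
Isg15: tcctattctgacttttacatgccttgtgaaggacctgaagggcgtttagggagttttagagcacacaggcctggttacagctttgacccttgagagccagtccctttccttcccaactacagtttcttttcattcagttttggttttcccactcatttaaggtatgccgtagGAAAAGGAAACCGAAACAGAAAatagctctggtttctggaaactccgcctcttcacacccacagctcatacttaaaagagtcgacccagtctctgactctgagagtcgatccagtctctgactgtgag
Oas1a: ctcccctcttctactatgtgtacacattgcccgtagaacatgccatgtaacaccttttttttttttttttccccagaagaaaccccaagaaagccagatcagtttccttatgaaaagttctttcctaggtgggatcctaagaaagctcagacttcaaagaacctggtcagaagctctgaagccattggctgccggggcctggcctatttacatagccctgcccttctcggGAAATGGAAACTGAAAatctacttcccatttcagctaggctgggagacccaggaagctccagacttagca
Irgm1: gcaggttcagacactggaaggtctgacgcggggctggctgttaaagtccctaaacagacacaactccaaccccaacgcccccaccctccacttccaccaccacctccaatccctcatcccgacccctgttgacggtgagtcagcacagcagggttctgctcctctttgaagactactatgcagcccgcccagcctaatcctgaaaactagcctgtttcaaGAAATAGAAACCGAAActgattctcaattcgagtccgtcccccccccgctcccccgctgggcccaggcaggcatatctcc
Gbp2: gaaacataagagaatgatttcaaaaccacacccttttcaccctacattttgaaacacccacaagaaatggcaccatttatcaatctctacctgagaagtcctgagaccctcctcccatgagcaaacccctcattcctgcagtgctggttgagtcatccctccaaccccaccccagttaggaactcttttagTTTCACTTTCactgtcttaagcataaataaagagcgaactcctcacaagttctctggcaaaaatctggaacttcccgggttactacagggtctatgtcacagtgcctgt
Gbp2b: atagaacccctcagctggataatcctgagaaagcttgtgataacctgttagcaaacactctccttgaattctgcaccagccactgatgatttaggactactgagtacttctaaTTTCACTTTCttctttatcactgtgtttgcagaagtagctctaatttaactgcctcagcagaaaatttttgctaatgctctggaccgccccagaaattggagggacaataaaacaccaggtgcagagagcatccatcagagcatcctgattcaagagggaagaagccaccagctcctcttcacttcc

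Over the whole comparison, the share of promoters with these letters was highest among the genes that were lower in PWD. Of the 9419 tested genes with a promoter in the RefSeq table, 392 (4.16%) held a match, and so did 1079 (3.99%) of all 27025 genes listed there. Among genes lower in PWD it was 159 of 1904 (8.35%), among those lower by a log2 of 1 or more 90 of 603 (14.9%), and by 2 or more 53 of 201 (26.4%). Among genes higher in PWD it was 114 of 3459 (3.30%), and among genes not called 119 of 4056 (2.93%). Among those higher by a log2 of 1 or more it was 33 of 721 (4.58%), and by 2 or more 9 of 161 (5.59%). The list of interferon-stimulated genes held a match in 17 of the 35 promoters available, the GTPase list in 10 of 10, and the MHC class II list in 0 of 11. A match is a description of letters in the reference genome, not a binding site or a cause, and the PWD sequence of these promoters was not analysed here.

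**Figure D2:**
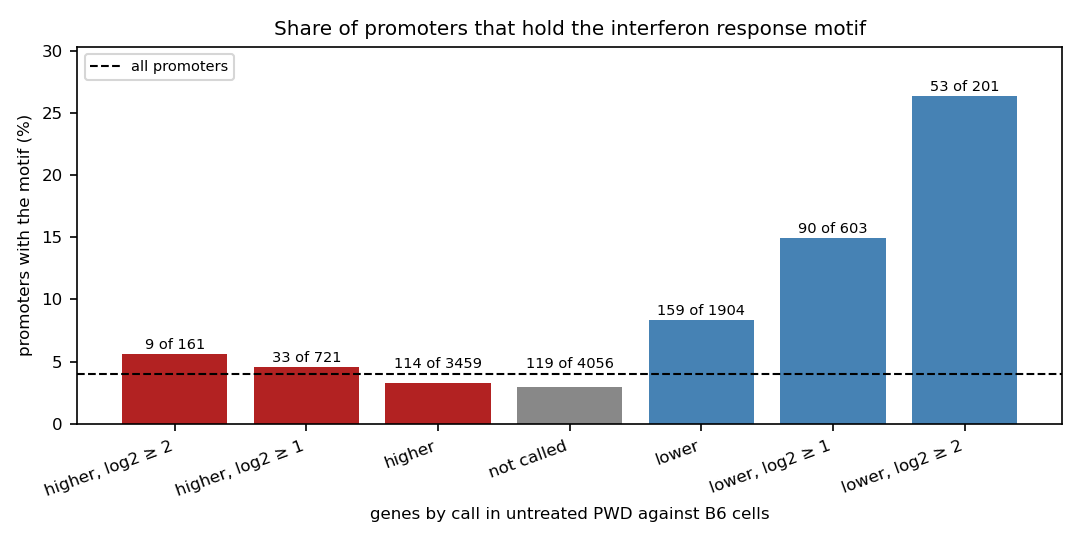
Percentage of promoters (300 bases) that hold the interferon response core on either strand, by the call of the gene in PWD_Untreated against B6_Untreated. The share is 2.93% for genes not called, 8.35% for all genes lower in PWD and 26.4% for those lower by a log2 of 2 or more.

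Several genome neighbourhoods were lower in PWD as a block. In windows of 10 neighbouring tested protein-coding genes, the lowest median, -3.13, was at chr11:48861968-49135387 (mm10), which runs from Irgm1 to Ifi47 and has 9 lower genes. The Ifi200 family of DNA sensors at chr1:173566283-174031810 had a median of -2.70 with 9 genes lower and 1 higher. That 1 is Ifi202b, which read 0.229, 0.417, 0.0791 and 0.0829 TPM in B6 and 52.1, 54.8, 64.6 and 71.9 TPM in PWD (log2 difference 5.68, SE 0.16, limma adjusted p = 2.0e-21). Ifi202b belongs to a family of close copies, so its value is uncertain. The Trim family at chr7:104218793-104507849 had a median of -2.04 (8 lower), the Oas cluster at chr5:120612739-121385632 one of -1.90 (7 lower) and the Ifit cluster at chr19:34492318-36057507 one of -1.69 (7 lower). In the MHC class II region at chr17:34143307-34316674 all 10 genes were lower. These windows hold families of related genes, so single values of their lower members are uncertain as well. How far PWD reads of such genes matched the reference was not tested. The largest positive medians were at a cluster of zinc finger genes on chr2:175372436-176532479 (1.94, 7 higher), at the fatty acid desaturases Fads1 to Fads3 on chr19:10001669-10526142 (1.47, 7 higher) and around Ear1 and Ear2 on chr14:34410734-44103534 (1.44, 7 higher). Of 11003 such windows, 44 held 8 or more lower and 243 held 8 or more higher genes. Successive windows were shifted by 1 gene and overlap, so a block can be counted several times. Of the protein-coding genes in them, 37.5% were higher and 20.1% lower.

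Sensors of nucleic acids inside the cell were mostly lower as well. Of 19 genes listed with these sensors and their adaptors, 13 (68.4%) were lower and 3 (15.8%) higher, beside 19.7% and 37.2% of all genes. The 3 higher genes were Mavs and the nuclease subunits Rnaseh2a and Rnaseh2b, and these subunits are neither sensors nor adaptors. Zbp1, which senses left-handed nucleic acid, read 53.2, 48.9, 48.4 and 62.9 TPM in B6 and 7.66, 7.88, 8.93 and 9.01 TPM in PWD (log2 difference -2.53, SE 0.11, limma adjusted p = 5.4e-17). The RNA helicases Dhx58 (-2.67) and Ifih1 (-2.24) were lower too. Mavs, the mitochondrial adaptor through which Ifih1 signals, was higher: 9.51, 9.07, 7.92 and 9.64 TPM in B6 and 18.7, 17.2, 22.3 and 20.6 TPM in PWD, with no overlap (log2 difference 1.04, SE 0.10, limma adjusted p = 4.1e-10).

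The receptor for LPS itself was not called on deposited TPM, while its partners moved in both directions. Tlr4 read 97.9, 119.6, 79.6 and 92.6 TPM in the B6 libraries and 81.1, 81.4, 96.7 and 96.1 TPM in the PWD libraries, with overlap (log2 difference -0.12, SE 0.10, limma adjusted p = 0.32). After median-of-ratios scaling Tlr4 was called lower (-0.28, limma adjusted p = 0.0033), and with mice 3 and 4 alone its difference was 0.16 and not called (limma adjusted p = 0.20). The co-receptor Cd14 was higher, at 199, 206, 182 and 183 TPM in B6 and 409.8, 368, 488 and 492 TPM in PWD (log2 difference 1.18, SE 0.10, limma adjusted p = 3.6e-11). Ly96, which binds the lipid part of LPS, was lower (-0.57), as was the adaptor Myd88 (-0.73). Ly86, partner of the related receptor Cd180, read 63.5, 58.6, 44.8 and 53.9 TPM in B6 and 8.52, 11.1, 10.2 and 11.6 TPM in PWD (log2 difference -2.30, SE 0.11, limma adjusted p = 1.9e-16). Irak3, a brake on this signal, was higher by 0.47. Of 20 genes listed with the complex and its adaptors, 3 (15.0%) were higher and 7 (35.0%) lower, beside 37.2% and 19.7% of all genes. With only mice 3 and 4 these were 9 and 5, beside 6611 higher and 1682 lower of all 13246 genes. The lower genes include Acod1, an enzyme that is neither a part of the receptor nor an adaptor.

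The other Toll-like receptors differed in both directions. Of 12 genes for these receptors and their chaperones, 7 (58.3%) were higher and 3 (25.0%) lower, beside 37.2% and 19.7% of all genes. Tlr1 (1.61) and Tlr6 (1.35), which pair with Tlr2 to sense bacterial lipopeptides, and the RNA sensor Tlr8 (1.14) were higher. Tlr9 read 17.4, 16.9, 10.1 and 12.9 TPM in the B6 libraries and 2.95, 3.03, 4.23 and 3.02 TPM in the PWD libraries. This sensor of unmethylated DNA was lower in every PWD library (log2 difference -1.81, SE 0.17, limma adjusted p = 3.5e-10), as were Tlr3 and Tlr11, both under 5 TPM.

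Antigen presentation genes were mostly lower. Of 15 MHC class II pathway genes, 14 were lower, 0 higher and Rfxank not called, and of 24 class I pathway genes 21 were lower and 1, the chaperone Calr, higher. H2-Ab1 read 1695, 1444, 1267 and 1485 TPM in the B6 libraries and 592, 666, 970.0 and 979.7 TPM in the PWD libraries. All PWD libraries lay below all B6 libraries, and mice 1 and 2 were the lowest in PWD (log2 difference -0.90, SE 0.14, limma adjusted p = 5.9e-06). The invariant chain Cd74 was lower (-0.92). H2-Ob and H2-Oa, the chains that restrain peptide loading, differed more, by -3.33 and -2.98. H2-Eb1 read 1704, 1384, 1235 and 1529.9 TPM in B6 and 28.8, 33.2, 59.1 and 54.2 TPM in PWD (log2 difference -5.08, SE 0.19, limma adjusted p = 1.8e-16). In class I, the peptide transporter Tap1 (-2.38), the light chain B2m (-0.60) and the non-classical H2-T22 (-3.86) were lower. MHC genes vary in sequence between strains and have close copies, and how far reads of PWD alleles matched the reference was not tested. The class II list summed to 4045 to 6898 TPM in PWD and 9807 to 13140.0 TPM in B6, and the C57 libraries lay at 3758 to 4976 TPM, below B6 and overlapping with PWD.

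Genes of mature, migrating dendritic cells were lower as well. Of 25 co-stimulation and maturation genes, 21 were lower and 2, Tnfsf9 (0.82) and Cd200 (0.57), higher. Ccr7 read 151, 115, 113 and 149 TPM in the B6 libraries and 9.30, 12.3, 13.4 and 16.2 TPM in the PWD libraries. This migration receptor was lower in each PWD library by several fold (log2 difference -3.28, SE 0.15, limma adjusted p = 2.8e-16). Tnfrsf9 read 236, 242, 171 and 196 TPM in the B6 libraries and 0.891, 0.787, 1.61 and 2.97 TPM in the PWD libraries. The co-stimulatory receptor 4-1BB, which this gene encodes, thus had the largest difference of the list (log2 difference -6.43, SE 0.21, limma adjusted p = 4.2e-17). The chemokine Ccl22 was lower (-2.80), and so was its neighbour Ccl17, which shares its receptor (-0.54, limma adjusted p = 0.008). Pdcd1lg2, the ligand PD-L2, was lower (-2.80), as was the calcium channel subunit Cacnb3 (-3.05). For Ccr7 the C57 libraries read 42.6 ± 8.96 TPM (SD, n = 4), between the strains, whereas the sum over the whole list was 2434 to 3535 TPM in C57, 2592 to 4501 TPM in PWD and 5752 to 7183 TPM in B6.

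**Figure D3:**
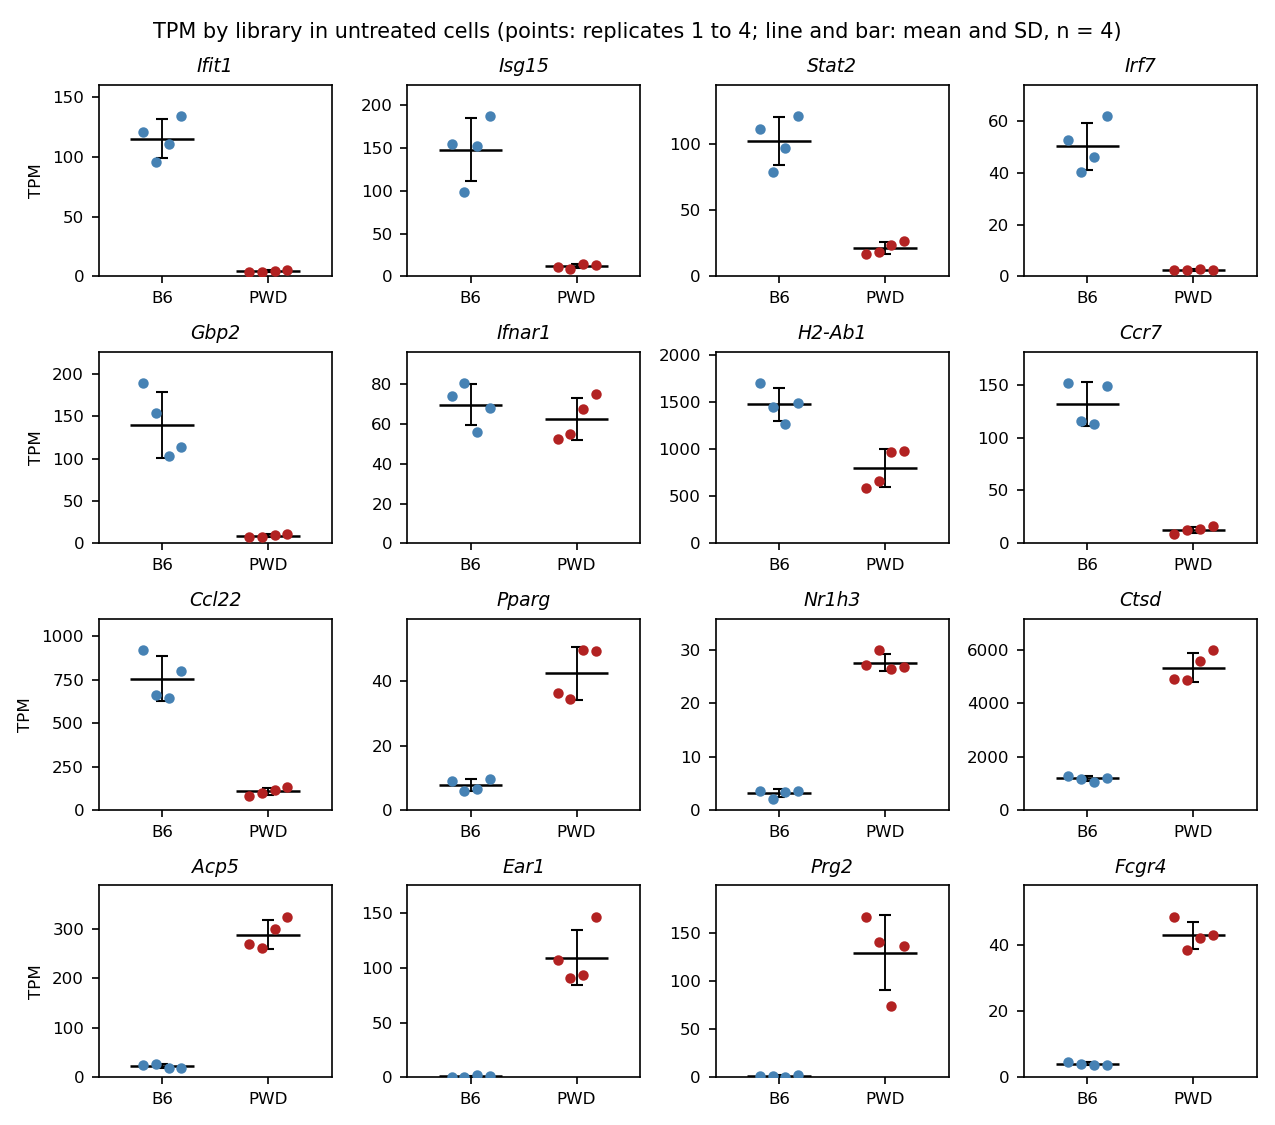
TPM of 16 genes in each library of B6_Untreated and PWD_Untreated, with 1 point per library, a line at the mean and a bar of 1 SD (n = 4). The groups overlap only for Ifnar1, and genes of interferon, antigen presentation and maturation are lower in PWD while Pparg, Nr1h3, Ctsd, Acp5, Ear1, Prg2 and Fcgr4 are higher.

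Nuclear receptors of lipid metabolism were among the genes higher in PWD. Pparg, which GM-CSF induces in myeloid cells, read 9.06, 6.12, 6.54 and 9.66 TPM in B6 and 36.2, 34.5, 49.5 and 49.3 TPM in PWD (log2 difference 2.30, SE 0.19, limma adjusted p = 2.5e-10). Nr1h3, the oxysterol receptor LXR-alpha, read 3.56, 2.10, 3.52 and 3.70 TPM in B6 and 27.1, 29.9, 26.4 and 26.8 TPM in PWD (log2 difference 2.78, SE 0.14, limma adjusted p = 1.4e-15). For both genes every PWD library exceeded every B6 library severalfold. The fatty acid carrier Fabp4, a textbook Pparg target, was higher by 2.79, whereas Apoe, a textbook Nr1h3 target, was lower (-1.92), at 91.00 TPM in B6 and 23.3 TPM in PWD. Of 28 genes of lipid efflux, storage and oxidation, 16 (57.1%) were higher and 4 (14.3%) lower, beside 37.2% and 19.7% of all genes. In mice 1 and 2 alone these were 8 and 5, beside 2799 higher and 3627 lower of all 13246 genes. With median-of-ratios scaling they were 13 and 5, beside 31.6% and 30.2% of all genes. Of 31 genes of cholesterol and fatty acid synthesis 24 (77.4%) were higher and 1, Tm7sf2, lower. Dhcr7, the last enzyme of cholesterol synthesis, went from 5.29 ± 0.779 TPM in B6 to 46.4 ± 3.63 TPM in PWD (SD, n = 4), and the desaturase Scd1 was higher by 2.19.

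Lysosomal genes were more often higher than lower. Of 27 cathepsins, hydrolases and their regulators, 15 (55.6%) were higher and 5 (18.5%) lower, beside 37.2% and 19.7% of all genes. In mice 1 and 2 alone these were 10 and 8, beside 2799 higher and 3627 lower of all 13246 genes. With median-of-ratios scaling they were 15 and 8, beside 31.6% and 30.2% of all genes. Ctsd read 1289.7, 1172, 1079 and 1227 TPM in the B6 libraries and 4891, 4881, 5586 and 5973 TPM in the PWD libraries. The aspartic protease cathepsin D was higher in each PWD library, without overlap (log2 difference 2.16, SE 0.10, limma adjusted p = 2.8e-16). Acp5, the tartrate-resistant phosphatase, read 25.6, 27.7, 18.8 and 19.6 TPM in B6 and 269.5, 261, 301 and 323 TPM in PWD (log2 difference 3.61, SE 0.13, limma adjusted p = 9.6e-19). The lower members included the protease inhibitor Cst3 (-1.91) and cathepsin S, Ctss (-0.60), which trims the invariant chain. Psap, the saposin precursor, was higher by 0.61 and Gpnmb, a lysosomal glycoprotein, by 1.36.

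Genes known from alternative activation did not move together: 6 of 16 (37.5%) were higher and 9 (56.25%) lower, beside 37.2% and 19.7% of all genes. Alox15 (4.09), an arachidonate lipoxygenase, Ccl24 (3.48), an eosinophil attractant, Retnla (2.58) and Arg1 (1.82) were higher. Chil3 read 506, 566, 539 and 612 TPM in the B6 libraries and 0.362, 0.732, 1.27 and 1.43 TPM in the PWD libraries. This chitinase-like gene was thus close to 0 in PWD (log2 difference -8.19, SE 0.22, limma adjusted p = 1.6e-18), and it has close copies in its family. Around arginine, Arg2 (2.10) and the transporter Slc7a2 (1.75) were higher, while Ass1 (-1.90), which rebuilds arginine from citrulline, and Acod1 (-1.27), which makes itaconate, were lower.

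Eosinophil granule genes were higher in PWD in every case called. Of 13 eosinophil genes tested, 12 were higher and 0 lower, and the summed level of the 15 genes on the list was 1758 to 2172 TPM in PWD and 119 to 247 TPM in B6. Prg2 read 1.88, 1.09, 0.658 and 3.01 TPM in the B6 libraries and 166, 141, 74.3 and 137 TPM in the PWD libraries. The major basic protein was thus abundant in each PWD library and close to 0 in B6 (log2 difference 5.64, SE 0.46, limma adjusted p = 2.5e-09). Epx, the eosinophil peroxidase, read 0.172, 0.251, 0.0948 and 0.200 TPM in B6 and 28.00, 26.7, 18.3 and 33.4 TPM in PWD (log2 difference 4.52, SE 0.17, limma adjusted p = 3.1e-18). The ribonucleases Ear1 (5.77), Rnase2a (5.63) and Ear2 (2.63) belong to a family of close copies. Among surface receptors, the eotaxin receptor Ccr3 (2.56) and Siglecf (1.74) were higher, while Il5ra stayed under the filter. The C57 means were 3.73 TPM for Prg2, 0.565 TPM for Epx and 411 TPM for Ear2.

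Neutrophil and precursor genes were mixed, with 13 of 25 (52.0%) higher and 7 (28.0%) lower, beside 37.2% and 19.7% of all genes. Their sums were 2147 to 3576 TPM in PWD and 2556 to 2884 TPM in B6. Camp, the cathelicidin of secondary granules, read 0.768, 0.874, 0.539 and 0.778 TPM in B6 and 31.4, 32.9, 47.5 and 50.6 TPM in PWD (log2 difference 4.55, SE 0.32, limma adjusted p = 1.2e-10). Cebpe, the factor of late granulocyte development, was higher by 2.75, and Chil1 by 4.09. S100a8 and S100a9, whose products form a single complex, parted: S100a8 read 793, 962, 957 and 966 TPM in the B6 libraries and 275, 322, 358 and 432 TPM in the PWD libraries, and S100a9 read 676, 719, 751 and 727 TPM in B6 and 1311, 1518, 2046 and 2243 TPM in PWD. S100a8 was lower (limma adjusted p = 7.9e-08) and S100a9 higher (limma adjusted p = 2.7e-05), both without overlap. Mast cell and basophil genes were low, at sums of 45.6 to 74.4 TPM in PWD and 48.8 to 62.3 TPM in B6, and 8 of 17 were under 1 TPM in all 8 libraries. The part of eosinophils or other granulocytes in the strain differences was not tested.

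Surface receptors shifted within each family rather than as a whole. Of 11 genes for Fc receptors and their signalling, 3 (27.3%) were higher and 6 (54.5%) lower, beside 37.2% and 19.7% of all genes. Fcgr4 read 4.79, 3.95, 3.77 and 3.82 TPM in the B6 libraries and 48.2, 38.3, 41.95 and 43.1 TPM in the PWD libraries. This activating receptor was higher in each PWD library (log2 difference 3.11, SE 0.12, limma adjusted p = 6.6e-18), as was the inhibitory Fcgr2b (1.11), while the high-affinity Fcgr1 was lower (-2.13). Of 22 C-type lectins 8 (36.4%) were higher, near the share of all genes, and 12 (54.5%) lower. Among them were Ly75, the endocytic receptor DEC-205 (1.98), Clec4a1 (-3.72) and Clec4n, the fungal receptor dectin-2 (-1.42). Siglecg, an inhibitory sialic acid receptor, was higher by 2.85, and Marco, a scavenger receptor for bacteria, by 3.54.

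Integrin genes differed in both directions. Itgad, the CD11d chain, read 0, 0.0383, 0.0326 and 0.0517 TPM in B6 and 11.1, 14.3, 18.05 and 16.5 TPM in PWD (log2 difference 3.94, SE 0.12, limma adjusted p = 1.2e-20). Itgb3 was higher by 2.84 and the hyaluronan receptor Cd44 by 1.12, whereas Itgb7 (-2.70) and Itga1 (-2.57) were lower. Among chemokine receptors, Cxcr2 (1.80) was higher and Ccr2 (-1.45), used by monocytes to leave the marrow, lower. The interleukin-17 receptor chain Il17ra (1.94), the TGF-beta receptor chain Tgfbr2 (1.86) and Il1rl1, the interleukin-33 receptor (1.68), were higher, and the interleukin-1 decoy receptor Il1r2 (-2.57) was lower. The ATP-gated channel P2rx1 read 0.826, 0.303, 0.568 and 0.353 TPM in B6 and 17.5, 19.2, 22.4 and 25.7 TPM in PWD (log2 difference 3.87, SE 0.13, limma adjusted p = 3.0e-19). The niacin and ketone body receptor Hcar2 was higher by 1.72 and the proton sensor Gpr65 lower (-3.30).

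Complement components were more often lower. C1qb read 609, 516, 479 and 566 TPM in the B6 libraries and 9.51, 9.62, 14.04 and 14.5 TPM in the PWD libraries. C1qa and C1qc, whose products join this chain in C1q, differed alike, by -4.66 and -4.62, and none of the 3 genes overlapped between the strains (C1qb log2 difference -5.41, SE 0.13, limma adjusted p = 1.3e-22). Of 17 complement genes 5 (29.4%) were higher and 10 (58.8%) lower, beside 37.2% and 19.7% of all genes. Among matrix genes, Thbs1 (-2.92) and the collagen-cleaving Mmp13 (-3.25) and Mmp14 (-2.64) were lower, while coagulation factor F7 (1.75) was higher. Ptx3, a soluble pattern recognition protein, read 334 ± 57.8 TPM in B6 and 0.901 ± 0.301 TPM in PWD (SD, n = 4).

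Baseline cytokines were split, 11 of 23 (47.8%) higher and 8 (34.8%) lower, beside 37.2% and 19.7% of all genes. The interleukin-1 genes Il1a (1.61) and Il1b (1.30) and the related Il18 (2.98) were higher. Il18 read 3.76, 2.10, 1.81 and 3.29 TPM in the B6 libraries and 22.5, 27.3, 30.1 and 31.8 TPM in the PWD libraries. Every PWD library stood above every B6 library for this substrate of caspase-1 (log2 difference 2.98, SE 0.17, limma adjusted p = 1.6e-14). Tnf was lower (-0.44) with overlapping groups (limma adjusted p = 0.0021), and Il6, at 2.57 to 6.35 TPM in the 8 libraries, was higher by 0.41, a call lost when a library was left out (limma adjusted p = 0.038, at most 0.16). Il12b was not called (limma adjusted p = 0.064), and Il10 is listed at 0 in all PWD libraries and at 0 to 0.214 TPM in B6. Il15, a survival factor of lymphocytes, was lower (-1.79), as was Vegfa (-1.59).

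Regulators of inflammation were more often lower over all mice, and with mice 3 and 4 alone more were higher, as among all genes. Of 27 inflammasome and cell death genes 8 were higher and 12 lower, among the lower the pyrin gene Mefv (-2.49) and Naip2, a sensor of bacterial secretion systems (-1.82). Of 44 genes of NF-kB, AP-1 and their brakes, 8 were higher and 21 lower, from Map3k14, the kinase of the non-canonical pathway (-1.60), and Socs1, an inhibitor of Jak kinases (-1.43), to Fosl2 (0.83). With mice 3 and 4 alone 11 inflammasome and cell death genes were higher and 8 lower, and 14 and 15 of the NF-kB list. All 13246 genes moved too, from 4930 higher and 2614 lower over all mice to 6611 and 1682 in mice 3 and 4.

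Ribosomal protein genes were lower as a class, and named copies of these genes differed in both directions, some higher, some lower and some not called. Of 79 cytosolic ribosomal proteins 0 were higher and 67 lower, with a median of -0.39. Rps26 read 778, 717, 676 and 651 TPM in the B6 libraries and 88.8, 102, 200.1 and 176 TPM in the PWD libraries. PWD mice 1 and 2 were the lowest here (log2 difference -2.39, SE 0.17, limma adjusted p = 9.7e-12). Reads of a gene can be assigned to a near-identical copy elsewhere in the genome, and pseudogenes took 3.78% ± 0.336 of TPM in PWD and 1.41% ± 0.0216 in B6 (SD, n = 4, exact two-sided permutation p = 0.0286, the smallest this design can give). Of 808 pseudogenes tested, 413 (51.1%) were higher and 83 (10.3%) lower, beside 37.5% and 20.1% of protein-coding genes. When the TPM of 749 named copies were added to their gene, Rps26 turned from lower to higher, at 0.66, and of the ribosomal proteins 1 was higher and 59 lower, with a median of -0.34.

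The ferritin light chain gene Ftl1 and the glycolytic gene Gapdh were lower while a named copy of each was higher. Ftl1 read 8032, 7057, 7179.7 and 7288 TPM in the B6 libraries and 2417, 2378, 2160.0 and 2219 TPM in the PWD libraries. This ferritin light chain gene was lower without overlap (log2 difference -1.69, SE 0.07, limma adjusted p = 1.3e-17), but the pseudogene Ftl1-ps1, named here after its values were seen, read 112, 113, 109 and 107 TPM in B6 and 5410.1, 5784, 5829.6 and 6394 TPM in PWD. Together with 2 named copies Ftl1 summed to 7500 ± 439 TPM in B6 and 8442 ± 347 TPM in PWD (SD, n = 4), a difference of 0.17. Gapdh read 2049, 1896, 1648 and 1998 TPM in B6 and 783, 774, 1010.5 and 1013 TPM in PWD, while its pseudogene Gapdh-ps16, also picked after its values were seen, was at 0.301 to 0.346 TPM in B6 and 881, 858, 1016 and 1033 TPM in PWD. The sum over Gapdh and 3 copies was 1898 ± 179 TPM in B6 and 1842 ± 225 TPM in PWD, a difference of -0.05 that was not called (limma adjusted p = 0.72).

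Among named copies that are themselves genes, Eno1b was higher by 4.70, Tpm3-rs7 by 5.62 and Hmga1b by 4.25. With the parent genes and copies added, the differences were 0.32 for Eno1, 0.41 for Tpm3 and -0.51 for Hmga1, 3 parent genes picked after their values were seen, like Rps18 and Rpl35a in the plot of genes and copies. In all, 179 pairs of a gene and a named copy could be tested, over 136 genes. The copy was higher in 104 pairs and lower in 19, and of 82 genes that were lower 56 (68.3%) had a copy that was higher, beside 29 of the 54 other genes (53.7%). Values of single genes with such copies are therefore uncertain between these strains, and how reads with several matches were counted is not given in the labels.

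**Figure D4:**
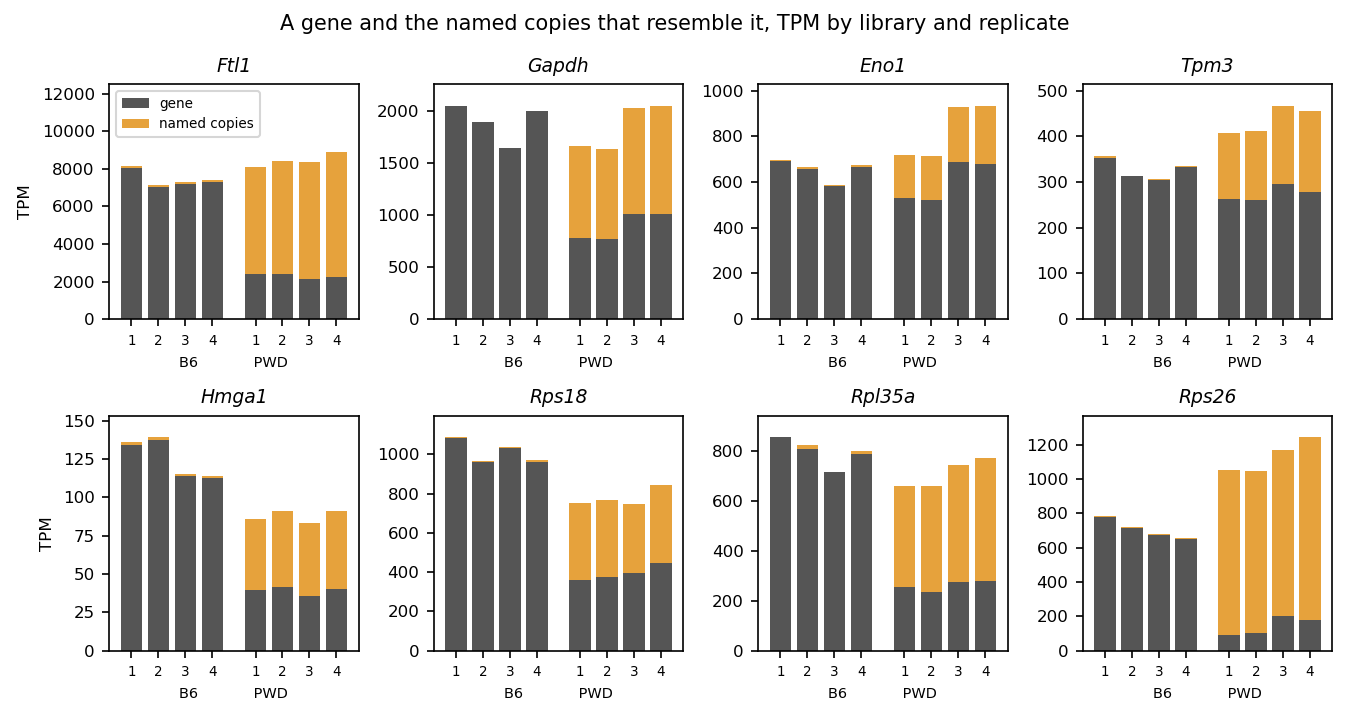
Stacked TPM of 8 genes (dark) and of their named copies (light) in each B6_Untreated and PWD_Untreated library. In B6 nearly all TPM are on the gene, and in PWD a part is on the copies, as for Gapdh, where 947 of 1842 TPM are on copies.

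Cell cycle genes were mostly higher, while the counts of energy genes moved with the scaling and the mouse number. Of 38 cell cycle genes 32 (84.2%) were higher and 3 (7.89%) lower, beside 37.2% and 19.7% of all genes. Of 47 nuclear genes of oxidative phosphorylation 29 (61.7%) were higher and 4 (8.51%) lower. In mice 1 and 2 alone the higher genes of these lists were 19 and 11, beside 2799 of all 13246 genes. With median-of-ratios scaling they were 29 and 17, beside 31.6% of all genes, and the latter is near that share. Tk1 (1.57) and Rrm2 (1.41), which supply nucleotides, and the helicase subunit Mcm2 (1.25) led the cell cycle list, and the brake Cdkn1a was lower (-0.88). Of 13 mitochondrial mRNAs 3 (23.1%) were higher and 5 (38.5%) lower, from mt-Nd4 (1.04) and mt-Cytb (0.89) to mt-Co1 (-0.63) and mt-Nd6 (-1.52). Phgdh, the entry enzyme of serine synthesis, read 9.31, 7.41, 10.7 and 10.5 TPM in B6 and 57.9, 68.2, 67.5 and 72.6 TPM in PWD (log2 difference 2.70, SE 0.14, limma adjusted p = 1.5e-15). Of 30 genes of glycolysis and the pentose phosphate pathway 12 (40.0%) were higher and 7 (23.3%) lower, near the shares of all genes. With median-of-ratios scaling 10 were higher and 15 lower, beside 31.6% and 30.2% of all genes. The glucose transporter Slc2a3 (1.75) and the phosphofructokinase Pfkl (1.12) were higher, and the platelet-type phosphofructokinase Pfkp (-0.95) and the aldolase Aldoc (-0.59) were lower.

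Redox genes moved both ways, 10 of 32 (31.25%) higher and 12 (37.5%) lower, beside 37.2% and 19.7% of all genes. The plasma-type peroxidase Gpx3 (3.14) and the mitochondrial transhydrogenase Nnt (2.04) were higher, and Gclm (-1.19), which limits glutathione synthesis, Nqo1 (-1.15) and Mgst2 (-2.20) were lower. In mice 3 and 4 alone 18 were higher and 7 lower, in mice 1 and 2 alone 3 and 16, and with median-of-ratios scaling 5 and 16. All 13246 genes moved too, to 6611 higher and 1682 lower in mice 3 and 4 and to 2799 and 3627 in mice 1 and 2. With median-of-ratios scaling 31.6% of all genes were higher and 30.2% lower. The ferritin heavy chain Fth1 was the most abundant of the genes named here, at 10821, 9849, 10164 and 9896 TPM in B6 and 17266, 17859, 17935 and 18979 TPM in PWD (log2 difference 0.82, SE 0.06, limma adjusted p = 8.8e-12), without overlap. Of 19 iron genes 14 (73.7%) were higher and 4 (21.1%) lower. In mice 1 and 2 alone 7 were higher, beside the 2799 of all 13246 genes.

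Among abundant secreted products, lysozyme genes parted. Lyz1 read 2.42, 1.18, 1.06 and 0.760 TPM in the B6 libraries and 198, 228, 332 and 289 TPM in the PWD libraries, and Lyz2 read 7768, 7271, 6721 and 7902 TPM in the B6 libraries and 4133, 4208, 5925 and 6145 TPM in the PWD libraries. The near-identical pair thus differed by 6.82 for Lyz1 and -0.56 for Lyz2, and single values of such a pair are uncertain. The chemokine Ccl6 was higher, at 3536, 3388, 3146 and 3632 TPM in B6 and 6634, 6843, 7307 and 8100.3 TPM in PWD (log2 difference 1.07, SE 0.10, limma adjusted p = 2.7e-10).

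The largest differences outside these groups were often close to presence against absence. Aqp3 read 2.36, 2.88, 1.74 and 2.94 TPM in the B6 libraries and 118, 152, 199.5 and 201 TPM in the PWD libraries. The lowest PWD library of this glycerol and water channel stood far above the highest B6 library (log2 difference 5.58, SE 0.16, limma adjusted p = 5.0e-21). Fbln5, a matrix protein, was at most 0.0572 TPM in B6 and 18.1, 18.4, 20.4 and 20.9 TPM in PWD (log2 difference 4.31, SE 0.10, limma adjusted p = 2.9e-23). Flvcr2 (4.28), a choline transporter, Cyp1b1 (4.61), a target of the aryl hydrocarbon receptor, and the chemokine Cxcl14 (3.97) were also higher. Asgr2, a subunit of the asialoglycoprotein receptor, read 322, 268, 231 and 270.1 TPM in B6 and 4.35, 4.87, 5.21 and 4.50 TPM in PWD (log2 difference -5.57, SE 0.14, limma adjusted p = 5.0e-22). The kallikrein genes Klk1b11 (-8.56), Klk1b1 (-5.34) and Klk1b9 (-5.11) and the anti-apoptotic Bcl2a1a (-7.63) were lower. Hist1h4m, a histone gene, is listed at 0 in 3 PWD libraries and at 345, 396, 369.8 and 388 TPM in B6, and Rprl3, an RNase P RNA-like gene, is listed at 0 in all B6 libraries and at 166, 193, 213 and 204 TPM in PWD. The kallikrein, Bcl2a1 and histone genes have close copies, so their single values are uncertain.

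On deposited TPM the PWD minus B6 difference of most genes lay further to the positive side in mice 3 and 4 than in mice 1 and 2. Its median over all genes was -0.06 in mice 1 and 2 and 0.36 in mice 3 and 4. A limma test of this change on deposited TPM called 2270 genes (17.1%), 2227 with a higher and 43 with a lower difference in mice 3 and 4, and the median shift of all genes was 0.41. After median-of-ratios scaling 6 genes (0.0453%) were called, 2 higher and 4 lower, with 2177 genes at an unadjusted p under 0.05, and the median shift was 0.00. The number goes with sex and, in PWD, with the structural RNA share given above, and these cannot be told apart. Asb2, a ubiquitin ligase subunit, was lower in PWD, with differences of -3.70 in mice 1 and 2 and -1.75 in mice 3 and 4, and the interferon-induced Ifitm1 had differences of -4.72 and -2.92. Cebpb, a myeloid transcription factor, differed by -0.41 and 1.67, and over all mice it was not called (log2 difference 0.63, SE 0.33, limma adjusted p = 0.11). The small nucleolar RNA Snora17 was listed at 0 in B6 1 and 2 and in PWD 3 and 4 and stood at 3.44 to 4.45 TPM in the other 4 libraries.

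**Figure D5:**
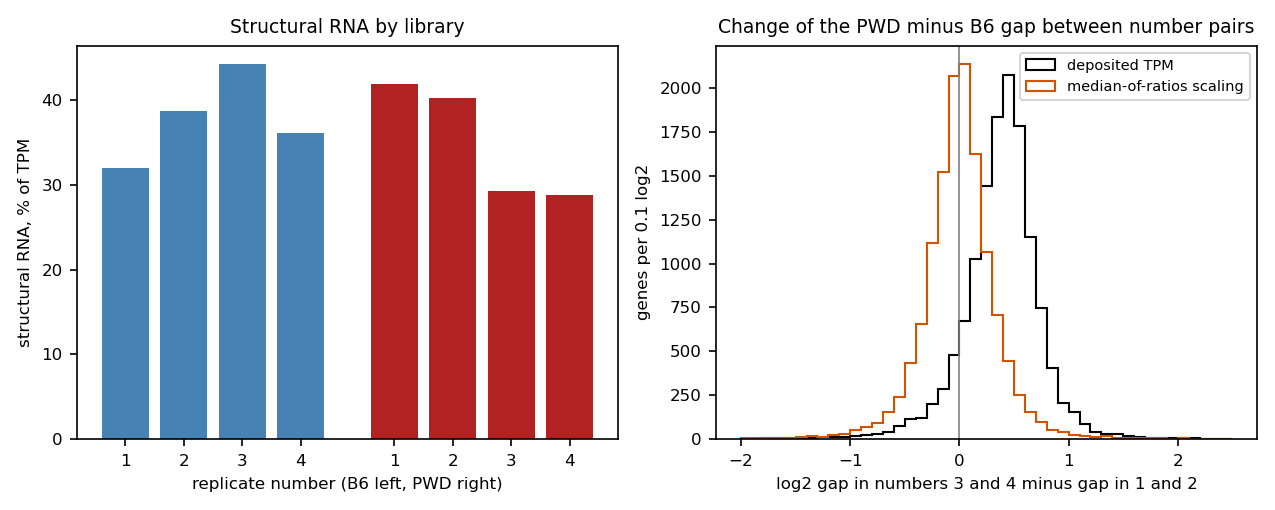
Percentage of TPM on structural RNA in each of the 8 libraries, and the histogram over 13246 genes of the change of the PWD minus B6 log2 difference from mice 1 and 2 to mice 3 and 4. The histogram is centred at 0.41 on deposited TPM and at 0.00 after median-of-ratios scaling.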

How the data were processed

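Bulk RNA-seq libraries of the 8 untreated cultures were made with a stranded kit from total RNA, per the labels. The authors deposited TPM, 1 table of 55401 rows for all 24 libraries, each summing to 1000000. STAR, edgeR and mm10 are named without versions in the submitters' processing notes, and no source used here gives the annotation, the counting or how TPM were made. Depth and counting error cannot be read from TPM and are unknown.

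Groups were taken from the sample titles. Lines with the same symbol were summed, which left 55291 symbols. The 13246 genes that reached 1 TPM in 4 or more of the 24 libraries were tested on log2(TPM + 1) with limma 3.58.1 in R 4.3.3. The fit had 6 group means, all 24 libraries and 18 residual degrees of freedom, with empirical Bayes with trend and robust options, two-sided, Benjamini-Hochberg adjusted. The change with the mouse number was an interaction fitted to the 8 libraries. Shares of TPM were compared by exact permutation over libraries. The fit was tested on simulated data. Copies are pseudogenes and genes named after a parent, such as Ftl1-ps1. Promoters are from RefSeq on GRCm38.p6, and windows take neighbouring tested protein-coding genes with a GENCODE position.

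The members and lists were chosen with earlier results of these data known. Named are the 20 largest differences each way, up to 3 called genes each way per list, the 10 largest changes of TPM each way, 5 genes of the number test and fixed genes such as Tlr4, and the text gives a part of them; some genes are not reported here. Members of a list outside that rule (Stat6, Ifi44l, Rfxank, Calr, Tm7sf2, Rnaseh2a, Rnaseh2b, Tlr3 and Tlr11) were named after their values were seen. Alternatives were other pseudocounts, filters, scalings and fits, named copies added, and each library left out.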

Additional observations from a re-analysis of the deposited data

Results flagged for a closer look

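Among 398 sets of 4 libraries (199 named genes in 2 strains), 11 held a library set apart from the other 3 by more than Dixon's critical value, and chance gives about 1 in 20. In PWD these were mouse 1 for Ifnb1 (0.111 TPM, the others at 0) and Tk1 (17.5 TPM, the lowest), mouse 2 for Ccl24 (39.9 TPM, the lowest), mouse 3 for Tlr9 (4.23 TPM) and Hist1h4m (4.14 TPM, the others at 0), and mouse 4 for Mvd (76.3 TPM). In B6 they were mouse 1 for S100a8 (793 TPM, the lowest) and Fcgr4 (4.79 TPM), mouse 2 for Nr1h3 (2.10 TPM, the lowest) and mouse 3 for mt-Co1 (3802 TPM, the lowest) and the pseudogene Rps18-ps6 (1.93 TPM).

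The PWD minus B6 difference depended on the mouse number in 2270 genes on deposited TPM, 72 of the 199 named genes among them, and in 6 genes after median-of-ratios scaling, 2 of them named. Those 2 were Asb2, whose log2 difference was higher by 1.95 in mice 3 and 4 than in mice 1 and 2, and Snora17, whose difference changed by -4.61.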

How the results depend on the processing

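The genes called in either direction, 4930 higher and 2614 lower, became 6979 to 7796 in all when a library was left out, 4226 to 5494 higher and 2296 to 2822 lower. A minimum absolute log2 difference of 1 left 2223, 1371 higher and 852 lower. With mice 1 and 2 alone 2799 genes were higher and 3627 lower, and with mice 3 and 4 alone 6611 and 1682. With median-of-ratios scaling 4181 were higher and 3998 lower, and with quantile normalization 4061 and 4332. All 6790 genes called both on deposited TPM and after median-of-ratios scaling kept their direction, and with copies added 10 of 7383 reversed. The genes whose difference changed with the mouse number (2270) became 6 with median-of-ratios scaling, 34 without structural RNA, 4856 over all 24 libraries, and 110.0 to 5585 when a library was left out, the lowest without B6 mouse 3 and the highest without B6 mouse 4. The cause of these shifts was not tested. The pseudogene share difference was 2.24 to 2.46 points and the structural share difference -4.98 to -0.533 points when a library was left out.

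Directions turned for some named genes: with mice 3 and 4 alone Itgax 0.21, Csf2rb 0.33, Ifnar1 0.20, Tlr4 0.16, Eno1 0.13 and Snora17 -2.23, with mice 1 and 2 alone Jak1 -0.0061 and Cebpb -0.41, and with quantile normalization Csf2rb 0.0906, Eno1 0.0473 and Snora17 -0.0145. With copies added Rps26 was 0.66, Ftl1 0.17, Eno1 0.32 and Tpm3 0.41. When a library was left out, Itgax ran from -0.232 to 0.0227 (positive without PWD mouse 1), Csf2rb from -0.195 to 0.0112 (positive without PWD mouse 1 or 2) and Snora17 from -0.34 to 0.4741.

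Samples with the same number correlated at -0.119 to 0.128 after removal of group means, so the numbers pair no samples beyond sex. A fit with the replicate number as a block called 7542 genes, 4942 higher and 2600.0 lower. Depth is unknown in TPM, which limits genes near 1 TPM most.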
